A study of Mus musculus with 18 samples.

Results

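Ribosome footprints from the cerebellum of B6J.*Gtpbp1*-/- mice were compared with those from B6J mice across all genes. The members were chosen by genotype and assay from the sample labels: 3 B6J.*Gtpbp1*-/- and 3 B6J footprint libraries, 6 of the 9 footprint libraries and of the 18 samples in the series. Ribosome profiling sequences the short pieces of mRNA that translating ribosomes protect, so a count per gene reflects how many ribosomes sat on its coding sequence. The other samples were footprint libraries of a *Gtpbp2* mutant and RNA libraries of the same 3 genotypes, and the RNA libraries of B6J.*Gtpbp1*-/- and B6J mice, 3 of each, were read beside the footprints. The question was how the loss of *Gtpbp1* changed the set of mRNAs under translation.

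Both groups were 3 weeks old and on the C57BL/6J (B6J) strain, which carries a hypomorphic mutation of *n-Tr20*, a nuclear-encoded arginine tRNA that reads AGA codons. In B6J.*Gtpbp1*-/- mice both copies of *Gtpbp1* were disrupted by an insertion that takes away coding sequence in exons 3 and 4. The allele was first made in another stock and then bred onto B6J, so sequence near the gene may still come from the earlier background. Each library was made from 1 cerebellum, and the study drew on males and females. GTPBP1 is a translational GTPase related to GTPBP2 and to the factors that recycle stalled ribosomes. Stalled ribosomes and uncharged tRNA are known to activate the eIF2α kinase GCN2, which lowers general initiation while the mRNA of the transcription factor ATF4 is translated more. ATF4 and its partners then raise genes for amino acid uptake, amino acid synthesis and tRNA charging, a program called the integrated stress response.

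Footprints in coding sequence totalled 4428395, 4489970 and 6523974 in B6J replicates 1 to 3 and 7054063, 8612441 and 5944024 in B6J.*Gtpbp1*-/- replicates 1 to 3, so the shallowest libraries were B6J libraries. Levels below are CPM, counts scaled to the same normalized library size in every library. Along the first principal component of all genes (42.2% of the variance), every B6J library (replicates 1 to 3 at -19.8, -66.5 and 4.03) lay below every B6J.*Gtpbp1*-/- library (37.4, 29.4 and 15.5), with B6J replicate 2 farthest from the others. B6J replicate 3, the B6J library nearest to the B6J.*Gtpbp1*-/- libraries there, correlated with B6J.*Gtpbp1*-/- replicate 2 at r = 0.976 (across genes, log2 CPM), above its r of 0.966 and 0.946 with B6J replicates 1 and 2. B6J replicate 3 and B6J.*Gtpbp1*-/- replicate 2 also held little choroid plexus signal: footprints of *Ttr*, the transthyretin made by choroid plexus epithelium, were at 5423, 3619.5 and 48.1 CPM in the B6J libraries and at 13446, 177 and 11876 CPM in the B6J.*Gtpbp1*-/- libraries.

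*Gtpbp1* itself (chr15:79690845-79721479, GRCm38) had 73.4, 117 and 84.5 CPM in the B6J libraries and 31.9, 25.4 and 35.5 CPM in the B6J.*Gtpbp1*-/- libraries. Every B6J.*Gtpbp1*-/- library lay below every B6J library, as labelled, and *Gtpbp1* fell (log2 fold change -1.57 ± 0.23 (SE, n = 3), adjusted p = 0.00676). The call held without any 1 of the 6 libraries, with adjusted p of at most 0.034. Exons 3 and 4 hold 9.03% and 17.4% of the coding bases of the longest *Gtpbp1* transcript, so footprints on the remaining exons are counted in these values. *Gtpbp1* RNA also fell, by less on the log2 scale (-0.73, adjusted p = 5.94e-05). Its paralog *Gtpbp2*, the related rescue factor, had 44.6, 36.1 and 38.3 CPM in B6J and 36.1, 43.2 and 58.2 CPM in B6J.*Gtpbp1*-/- libraries. The *Gtpbp2* values overlapped between the groups and were not called (log2 fold change 0.21 ± 0.22 (SE, n = 3), adjusted p = 0.769), while its RNA was called higher (log2 fold change 0.34, adjusted p = 0.0154), but not without B6J replicate 2 or B6J.*Gtpbp1*-/- replicate 1 (adjusted p = 0.066 and 0.0647). Within 5 Mb on either side of *Gtpbp1* on chromosome 15, 189 other genes were tested, of which 1 was called higher (*Atf4*) and 0 lower, beside 0.573% higher and 0.172% lower among all genes tested, and their median log2 fold change was -0.040. In RNA, 48 of 187 of these neighbours were called, beside 13.8% of all genes tested in RNA. The neighbours had passed the footprint count filter and the 13.8% covers every gene tested in RNA, so these shares come from unlike sets.

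Across all genes, 13956 were tested and 104 were called at an adjusted p of at most 0.05 by edgeR's quasi-likelihood test (0.745%). Of these, 80 were higher in B6J.*Gtpbp1*-/- cerebellum (0.573%) and 24 were lower (0.172%). Among them, 44 of the 80 and 23 of the 24 belonged to none of the 31 gene lists described below. The lists and their members were chosen with earlier results of these data known. Their counts of calls below are descriptions and no evidence of enrichment. The groups did not overlap for any of the 104, and for all genes tested every B6J.*Gtpbp1*-/- library was above every B6J library in 1259 (9.02%) and below in 1216 (8.71%). The count rested on single libraries: it was 22 without B6J replicate 1, 41 without B6J replicate 2, 186 without B6J replicate 3 (97 of them lower), 37 without B6J.*Gtpbp1*-/- replicate 1 and 182 without B6J.*Gtpbp1*-/- replicate 3. Without B6J.*Gtpbp1*-/- replicate 2 it was 96, of which 5 were lower. Of the 104 genes, 16 were called in every one of the 6 fits that left out a library, 13 higher and 3 lower. The count filter was met in all B6J.*Gtpbp1*-/- libraries but in fewer than 3 B6J libraries by 8 of the 80 (*Adm2*, *Cass4*, *Cox6a2*, *Cyb5r2*, *Eif4ebp1*, *Fgf21*, *Hsd17b1* and *Mfap5*), so these passed it through the group in which they were high. Without all 943 genes that met it in every library of 1 group and not of the other, 96 of 13013 tested genes were called. With DESeq2, 410 genes were called (2.94%), 252 higher (1.81%) and 158 lower (1.13%), so 61.5% of these calls were higher, against 76.9% of the 104. At an unadjusted p under 0.05 edgeR had 1763 genes (12.6%).

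**Figure D1:**
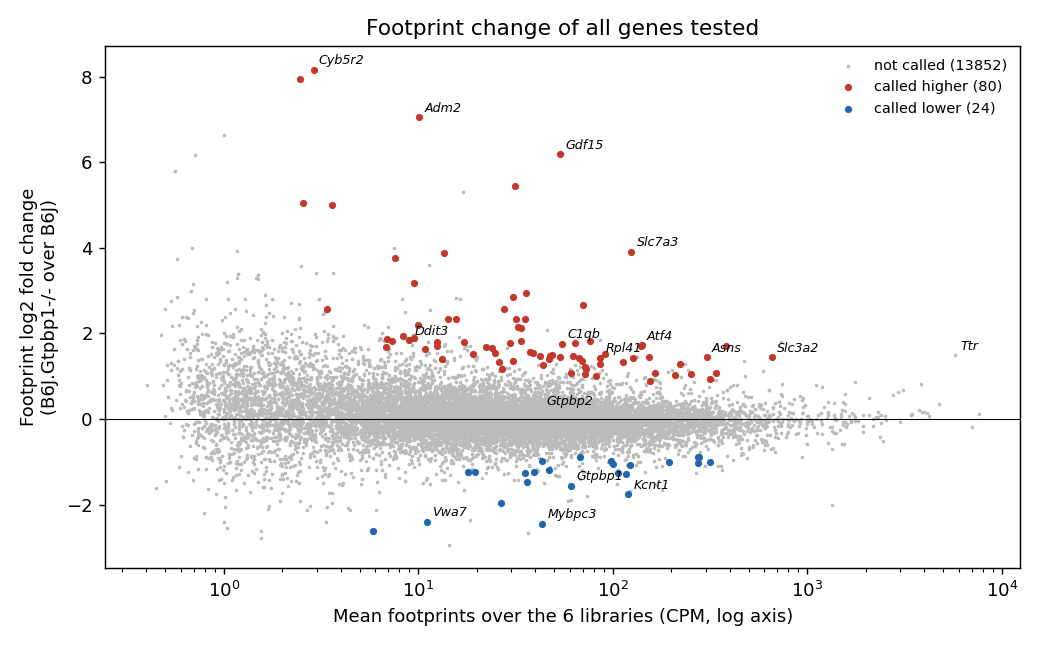
Footprint log2 fold change (B6J.*Gtpbp1*-/- over B6J) against the mean footprint level in the 6 libraries (CPM, log axis) for the 13956 genes tested, 1 point per gene, with the 80 genes called higher in red and the 24 called lower in blue. *Gdf15* and *Slc7a3* stand above other genes of a similar level, *Ttr* is high but not called, and fitted values of genes at 0 in all B6J libraries, such as *Cyb5r2*, depend on the prior count.

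Transcription factors of the stress response were among the calls. Of 10 genes on the list of ATF4 and its partner factors, 5 were called higher and 0 lower, against 0.573% higher among all genes tested, and the list's median log2 fold change was 1.98 beside 0.014 for all genes. Since the list was chosen with earlier results known, these values are a description only. Without 1 member that met the count filter in every B6J.*Gtpbp1*-/- library but not in every B6J library, 5 of 9 were called and the median was 1.84. *Atf4*, the master regulator, had 54.9, 99.7 and 41.9 CPM in B6J and 214, 162 and 265 CPM in B6J.*Gtpbp1*-/- libraries. All 3 B6J.*Gtpbp1*-/- libraries were above the highest B6J library, replicate 2 (log2 fold change 1.71 ± 0.30 (SE, n = 3), adjusted p = 0.0213). *Atf5*, a related factor also translated preferentially under stress, went from 6.25, 11.2 and 7.44 CPM to 49.3, 43.1 and 98.4 CPM (log2 fold change 2.94 ± 0.35 (SE, n = 3), adjusted p = 0.0017), with B6J.*Gtpbp1*-/- replicate 3 highest. *Cebpb*, which pairs with ATF4 on DNA, had 8.03, 2.2 and 11.9 CPM in B6J and 51.1, 39.6 and 71.6 CPM in B6J.*Gtpbp1*-/- libraries (log2 fold change 2.84 ± 0.44 (SE, n = 3), adjusted p = 0.0168). *Nupr1*, a small chromatin-associated stress protein, had a log2 fold change of 2.34 ± 0.32 (adjusted p = 0.00429). All 5 calls but that of *Atf5* rested on single libraries: *Nupr1* was not called without B6J replicate 1 (adjusted p = 0.0524), and *Cebpb* not without B6J replicate 1 (adjusted p = 0.104) or B6J.*Gtpbp1*-/- replicate 1 (adjusted p = 0.0778). The summed footprints of the list were 111, 172 and 107 CPM in the B6J libraries and 439, 337 and 551 CPM in the B6J.*Gtpbp1*-/- libraries, so the groups stood clear of each other. The 5 calls became 1 without B6J replicate 1 and 2 without B6J.*Gtpbp1*-/- replicate 1, and *Atf4* was no longer called without B6J replicate 1 (adjusted p = 0.156), B6J.*Gtpbp1*-/- replicate 1 (adjusted p = 0.107) or B6J.*Gtpbp1*-/- replicate 3 (adjusted p = 0.0615). With DESeq2, 7 of the 10 were called higher.

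*Ddit3*, which encodes the stress factor CHOP, stood in the annotation as 2 genes on chromosome 10, as the gene of its 168-codon main coding sequence and as a separate gene made of a 34-codon upstream coding sequence (chr10:127290829-127290891 and chr10:127293712-127293750, GRCm38) on the same mRNA. The main coding sequence had 3.35, 5.94 and 2.53 CPM in B6J and 15.1, 10.7 and 16.2 CPM in B6J.*Gtpbp1*-/- libraries (log2 fold change 1.84 ± 0.37 (SE, n = 3), adjusted p = 0.04). Footprints on the upstream coding sequence went from 5.13, 6.16 and 6.17 CPM to 23.9, 11.3 and 22.5 CPM (log2 fold change 1.71 ± 0.33 (SE, n = 3), adjusted p = 0.0332). Both stretches of the mRNA carried more footprints in every B6J.*Gtpbp1*-/- library than in any B6J library. The main coding sequence was not called without B6J replicate 1 (adjusted p = 0.205), B6J replicate 3 (adjusted p = 0.0792), B6J.*Gtpbp1*-/- replicate 1 (adjusted p = 0.146) or B6J.*Gtpbp1*-/- replicate 3 (adjusted p = 0.0601). The upstream one was not called without B6J replicate 1 (adjusted p = 0.198), B6J replicate 2 (adjusted p = 0.102), B6J replicate 3 (adjusted p = 0.0612), B6J.*Gtpbp1*-/- replicate 1 (adjusted p = 0.155) or B6J.*Gtpbp1*-/- replicate 3 (adjusted p = 0.0533). The RNA of *Ddit3* rose as well (log2 fold change 1.29, adjusted p = 1.23e-06), and RNA was assigned to the main gene only.

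Stress effectors were also among the calls. Of 15 genes, 8 were called higher and 0 lower, beside 0.573% higher and 0.172% lower among all genes tested, and the median log2 fold change was 1.44. Their choice was made with earlier results of these data known, so this count is a description only. Without *Fgf21* and *Eif4ebp1*, which met the count filter through the B6J.*Gtpbp1*-/- libraries, 6 of 13 were called and the median was 0.85. *Gdf15*, a secreted cytokine of stressed cells, stood at 1.12, 1.98 and 1.27 CPM in B6J and 112, 61.6 and 145 CPM in B6J.*Gtpbp1*-/- libraries. It had few counts in every B6J library and lay far above them in every B6J.*Gtpbp1*-/- library (log2 fold change 6.18 ± 0.39 (SE, n = 3), adjusted p = 9e-06). *Chac1*, an enzyme that degrades glutathione, had 7.36, 8.14 and 8.39 CPM in B6J and 45, 40.1 and 57.5 CPM in B6J.*Gtpbp1*-/- libraries (log2 fold change 2.57 ± 0.24 (SE, n = 3), adjusted p = 0.000309). *Stc2*, a secreted glycoprotein, had 2.45, 1.1 and 1.58 CPM and 27.5, 15 and 34.2 CPM (log2 fold change 3.89 ± 0.41 (SE, n = 3), adjusted p = 0.000848). *Sesn2*, a leucine-sensing inhibitor of mTORC1, had 14.3, 20.5 and 22.8 CPM and 94.2, 92.9 and 179.8 CPM (log2 fold change 2.66 ± 0.29 (SE, n = 3), adjusted p = 0.00105), with B6J.*Gtpbp1*-/- replicate 3 well above the other two. *Asns*, the asparagine synthetase and the list's most abundant gene, had 149, 154 and 188 CPM and 492, 432 and 410.5 CPM (log2 fold change 1.44 ± 0.18 (SE, n = 3), adjusted p = 0.00265). These 5 calls held without any 1 library, with *Asns* closest to the threshold (adjusted p of at most 0.0474).

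*Fgf21*, an endocrine growth factor, had 3 counts in all B6J libraries together and 142 in the B6J.*Gtpbp1*-/- libraries, a ratio of 33.5 with a 95% exact counting interval of 11.2 to 164 that covers counting error only. *Eif4ebp1*, the inhibitor of the cap-binding factor eIF4E, had 0.446, 1.1 and 1.42 CPM in B6J and 8.49, 9.62 and 24.4 CPM in B6J.*Gtpbp1*-/- libraries. *Trim66*, a chromatin-associated TRIM protein, had a log2 fold change of 1.56 ± 0.28 (adjusted p = 0.0209). *Trim66* was not called without B6J replicate 1 (adjusted p = 0.148) or B6J replicate 3 (adjusted p = 0.0536). *Fgf21* and *Eif4ebp1* passed the count filter through the B6J.*Gtpbp1*-/- libraries, so their adjusted p is not given and their calls are no evidence apart from the values above. Among the members that did not pass, *Vldlr*, a lipoprotein receptor, and *Ddit4*, an mTORC1 inhibitor, had values of 0.31 ± 0.17 (adjusted p = 0.493) and 0.65 ± 0.21 (adjusted p = 0.176). The list's summed footprints were 688, 680.1 and 799.8 CPM in the B6J libraries and 1517, 1291 and 1652 CPM in the B6J.*Gtpbp1*-/- libraries.

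**Figure D2:**
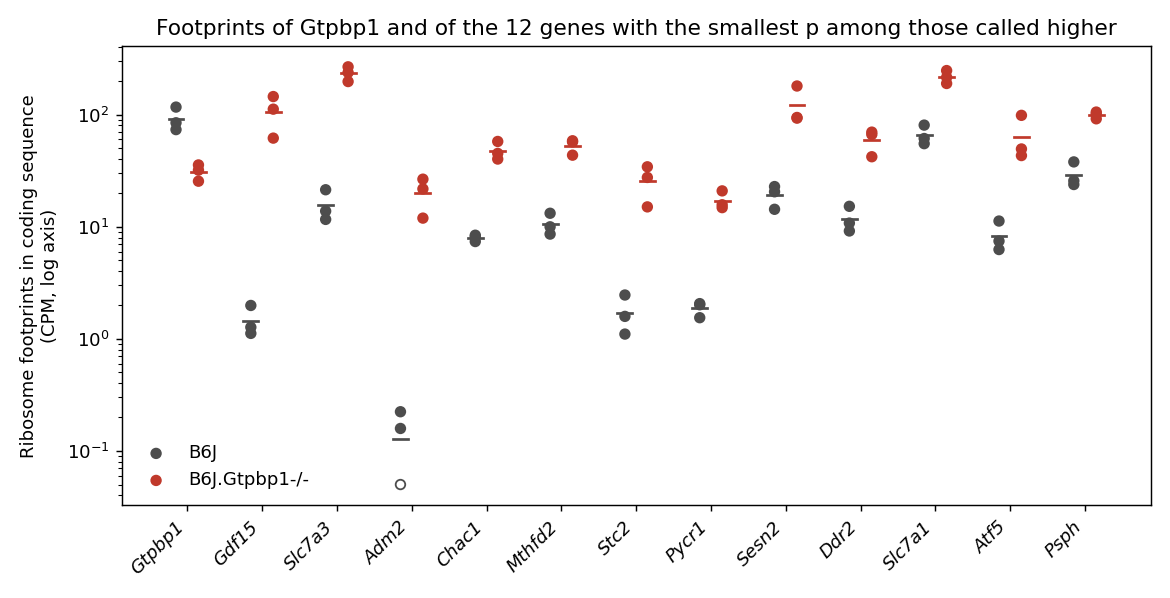
Footprints (CPM, log axis) of *Gtpbp1* and of the 12 genes with the smallest p among those called higher, 1 point per library, B6J in grey and B6J.*Gtpbp1*-/- in red, with a line at each group mean. Open points are libraries at 0 and are drawn at the bottom of the axis. For *Gtpbp1* the red points lie below the grey ones, and for the other 12 genes all red points lie above all grey ones. The 12 were chosen by p, and *Adm2* passed the count filter through the B6J.*Gtpbp1*-/- libraries, so this separation is no further evidence.

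Genes that bring amino acids into cells were called higher in part. Of 26 amino acid transporters, 5 were called higher and none lower, beside 0.573% higher and 0.172% lower among all genes tested, while the median log2 fold change was 0.23 (0.13 without B6J replicate 1 and 0.14 without B6J.*Gtpbp1*-/- replicate 3). The largest change was in *Slc7a3*, a cationic amino acid transporter of neurons, at 11.6, 21.3 and 13.8 CPM in B6J and 237, 197 and 267 CPM in B6J.*Gtpbp1*-/- libraries (log2 fold change 3.91 ± 0.25 (SE, n = 3), adjusted p = 9e-06). *Slc7a1*, the general transporter of arginine and lysine, had 61.1, 55 and 80.5 CPM and 247, 189 and 215 CPM (log2 fold change 1.72 ± 0.20 (SE, n = 3), adjusted p = 0.0017). *Slc7a5* and *Slc3a2*, the light and heavy chains of the large neutral amino acid transporter, had log2 fold changes of 1.69 ± 0.22 (adjusted p = 0.00409) and 1.44 ± 0.22 (adjusted p = 0.00829), and *Slc1a4*, a carrier of small neutral amino acids, 1.33 ± 0.23 (adjusted p = 0.0197). The glutamate transporters *Slc1a3*, *Slc1a2* and *Slc1a6*, the most abundant members by CPM, did not pass, with values of 0.035, 0.10 and 0.14 (adjusted p = 0.961, 0.926 and 0.831). The 5 calls became 2 without B6J replicate 1. *Slc7a5* and *Slc3a2* were not called without it (adjusted p = 0.0524 and 0.0939), nor was *Slc1a4* (adjusted p = 0.154), which was also lost without B6J replicate 2 (adjusted p = 0.0819).

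Enzymes that make serine, proline and one-carbon units were called higher in part. Of 18 such genes, 7 were called higher and 0 lower, beside 0.573% higher and 0.172% lower among all genes tested, 14 had a fold change above 0, and their median log2 fold change was 0.73. This list too was chosen with earlier results known, so the count is a description only. *Mthfd2*, an enzyme of mitochondrial folate metabolism, had 13.2, 8.58 and 9.97 CPM in B6J and 57.1, 43.4 and 58.4 CPM in B6J.*Gtpbp1*-/- libraries (log2 fold change 2.32 ± 0.24 (SE, n = 3), adjusted p = 0.000848). *Pycr1*, which makes proline, had 2.01, 1.54 and 2.06 CPM and 15.7, 14.8 and 20.8 CPM (log2 fold change 3.17 ± 0.34 (SE, n = 3), adjusted p = 0.000848), and *Psph*, the last enzyme of serine synthesis, 25.7, 23.8 and 37.8 CPM and 105, 91.7 and 101 CPM (log2 fold change 1.77 ± 0.22 (SE, n = 3), adjusted p = 0.00253). All 3 were called whichever library was left out. The other calls were *Shmt2* (1.52 ± 0.20, adjusted p = 0.00409) and *Aldh1l2* (1.81 ± 0.29, adjusted p = 0.0141) of mitochondrial one-carbon metabolism, *Aldh18a1* (1.43 ± 0.20, adjusted p = 0.00615) of proline synthesis and *Psat1* (1.08 ± 0.22, adjusted p = 0.04) of serine synthesis. Without B6J replicate 1 the 7 calls became 3, with adjusted p of 0.0524 for *Shmt2*, 0.1 for *Aldh1l2* and 0.0623 for *Aldh18a1*. *Psat1* was not called without B6J replicate 1 (adjusted p = 0.208), B6J replicate 2 (adjusted p = 0.169) or B6J.*Gtpbp1*-/- replicate 1 (adjusted p = 0.154). *Aldh1l1*, a cytosolic one-carbon enzyme of astrocytes, did not pass and had a value of -0.26 ± 0.19 (adjusted p = 0.623).

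Enzymes that charge tRNAs with amino acids were called in the cytosolic list. Of 21 cytosolic aminoacyl-tRNA synthetases, 4 were called higher (*Gars*, *Lars*, *Sars* and *Yars*) and 0 lower, beside 0.573% higher and 0.172% lower among all genes tested, and the median log2 fold change was 0.63. *Gars*, which charges glycine, had 234, 186 and 238 CPM in B6J and 491, 435 and 463 CPM in B6J.*Gtpbp1*-/- libraries (log2 fold change 1.08 ± 0.18 (SE, n = 3), adjusted p = 0.0141). The values for *Yars*, *Lars* and *Sars*, which charge tyrosine, leucine and serine, were 1.03 ± 0.18, 1.01 ± 0.20 and 0.94 ± 0.18 (adjusted p = 0.0197, 0.0329 and 0.0324). *Aars* and *Nars*, for alanine and asparagine, stood at 0.69 ± 0.17 and 0.90 ± 0.20 and did not pass (adjusted p = 0.1 and 0.0568). Summed footprints of the list were 2398, 2246 and 2717 CPM in the B6J libraries and 4258, 3759 and 3542 CPM in the B6J.*Gtpbp1*-/- libraries. These calls rested on single libraries, since the count was 0 without B6J replicate 1, 0 without B6J replicate 2, 0 without B6J.*Gtpbp1*-/- replicate 1, 2 without B6J.*Gtpbp1*-/- replicate 2 and 8 without B6J.*Gtpbp1*-/- replicate 3, and 10 with DESeq2. *Gars* was not called without B6J replicate 1 (adjusted p = 0.0939), B6J replicate 2 (adjusted p = 0.088) or B6J.*Gtpbp1*-/- replicate 1 (adjusted p = 0.0532), and *Yars* not without B6J replicate 1 (adjusted p = 0.148), B6J replicate 2 (adjusted p = 0.108) or B6J.*Gtpbp1*-/- replicate 1 (adjusted p = 0.0703). *Sars* was not called without B6J replicate 1 (adjusted p = 0.203), B6J replicate 2 (adjusted p = 0.152), B6J.*Gtpbp1*-/- replicate 1 (adjusted p = 0.138) or B6J.*Gtpbp1*-/- replicate 2 (adjusted p = 0.0549). The call of *Lars* was lost without B6J replicate 1 (adjusted p = 0.164), B6J replicate 2 (adjusted p = 0.151), B6J replicate 3 (adjusted p = 0.0514), B6J.*Gtpbp1*-/- replicate 1 (adjusted p = 0.141) or B6J.*Gtpbp1*-/- replicate 2 (adjusted p = 0.0725). Of 17 mitochondrial synthetases, none was called by edgeR (1 at an unadjusted p under 0.05, beside 12.6% of all genes tested) and 0 by DESeq2, their median was -0.26, and their summed footprints were 398, 411 and 411 CPM in B6J and 329.9, 355 and 346 CPM in B6J.*Gtpbp1*-/- libraries. The difference between both lists was not tested.

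ATF4 and C/EBP factors bind as pairs to a composite element with the core TGATGNAA. Promoter windows of RefSeq genes (GRCm38.p6, 250 bases before to 50 after the start) were searched for TGATGNAA on both strands, and 4.51% of all 27025 genes with a window held it. CACGTG, searched as a comparison, stood in 8.09%. A window was matched for 60 of the 80 genes called higher and 19 of the 24 called lower, under 80% of either, so a comparison of shares between called and other genes was void and is not given. The stretches below, from called members of the lists, show what a match looks like upstream of the RefSeq start in 7 genes. They were picked because they held a match, and the windows of most called genes held none. For *Asns* and *Nupr1*, that start lies inside the longer gene span given by Gencode. Each is written along the gene's own strand, with the letters of the match in capitals. TGATGNAA reads along that strand in *Asns* and *Pycr1* and lies on the opposite strand in the others.
Asns, chr6:7693214-7693243, - strand: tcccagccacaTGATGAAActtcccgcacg
Chac1, chr2:119351038-119351067, + strand: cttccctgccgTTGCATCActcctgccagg
Fgf21, chr7:45615611-45615640, - strand: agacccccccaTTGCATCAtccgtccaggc
Gars, chr6:55037960-55037989, + strand: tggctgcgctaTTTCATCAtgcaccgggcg
Herpud1, chr8:94386306-94386335, + strand: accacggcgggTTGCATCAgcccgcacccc
Nupr1, chr7:126625562-126625591, - strand: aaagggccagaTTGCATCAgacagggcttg
Pycr1, chr11:120643833-120643862, - strand: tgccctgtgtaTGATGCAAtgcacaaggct
A match is a description of these letters and not a binding site.

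Apart from *Gtpbp1*, none of the other 24 ribosome rescue and quality control factors was called, and neither was any of the 17 eIF2 kinases and regulators or of the 13 elongation and termination factors. In this order, 2, 2 and 1 of their 25, 17 and 13 genes were at an unadjusted p under 0.05, *Gtpbp1* included, beside 12.6% of all genes tested. DESeq2 called 0 of the eIF2 group, 0 of the elongation group and, of the rescue factors, *Gtpbp1* alone. Without B6J.*Gtpbp1*-/- replicate 3, edgeR called 1 gene of the eIF2 group higher. The most abundant rescue factors by CPM, *Tcf25* of the nascent chain quality control complex, *Rack1* of the small subunit and *Vcp*, the segregase ATPase, had values of -0.34 ± 0.17, 0.38 ± 0.18 and 0.13 ± 0.22 (adjusted p = 0.437, 0.425 and 0.871). Of the eIF2 kinase group, *Impact*, an inhibitor of GCN2, *Gcn1l1*, its activator, and *Eif2ak1*, the heme-regulated kinase, had 0.27 ± 0.24, -0.22 ± 0.21 and 0.045 ± 0.18 (adjusted p = 0.702, 0.727 and 0.951). The elongation factors *Eef1a2*, *Eef2* and *Eef1a1* had -0.30 ± 0.19, -0.010 ± 0.18 and 0.53 ± 0.18 (adjusted p = 0.541, 0.986 and 0.218). A p above the threshold does not show that these genes were unchanged.

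Ribosomal protein genes mostly had fold changes above 0 without being called. Of 80 cytosolic ones tested, 2 were called higher, *Rpl41* and *Rpl37* of the large subunit, and 0 lower, beside 0.573% higher and 0.172% lower among all genes tested, while 74 of 80 had a fold change above 0 beside 7197 of all 13956. The median was 0.37, 0.24 without B6J.*Gtpbp1*-/- replicate 1, 0.51 without B6J.*Gtpbp1*-/- replicate 2, 0.57 without both libraries lowest in choroid plexus markers, and 0.41 and 0.37 with upper quartile normalization and DESeq2, which called 4. *Rpl41* had 42.8, 34.3 and 62.8 CPM in B6J and 154, 98.8 and 126 CPM in B6J.*Gtpbp1*-/- libraries (log2 fold change 1.43 ± 0.25 (SE, n = 3), adjusted p = 0.0197). *Rpl37* had 52.4, 37 and 41 CPM and 123, 75.5 and 106 CPM (log2 fold change 1.22 ± 0.23 (SE, n = 3), adjusted p = 0.0256). The groups did not overlap for either gene, but neither call held without B6J replicate 1 (adjusted p = 0.155 and 0.0883), B6J replicate 2 (adjusted p = 0.0891 and 0.125) or B6J.*Gtpbp1*-/- replicate 1 (adjusted p = 0.0738 and 0.111), and *Rpl37* was also lost without B6J replicate 3 (adjusted p = 0.0612). Ribosomal protein genes are known to have processed copies, and reads shared with such copies were not examined, so the counts of both genes may be uncertain. The RNA of *Rpl41* and *Rpl37* had log2 fold changes of -0.065 and 0.12 (adjusted p = 0.667 and 0.506). The most abundant members by CPM, *Rpl4*, *Rpl8* and *Rps3*, did not pass (adjusted p = 0.807, 0.561 and 0.425).

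Of 23 genes of the endoplasmic reticulum chaperones and unfolded protein response, 1 was called higher (beside 0.573% higher and 0.172% lower among all genes tested), *Herpud1* of the degradation machinery, with 106, 121 and 158 CPM in B6J and 319, 252 and 369.9 CPM in B6J.*Gtpbp1*-/- libraries (log2 fold change 1.29 ± 0.21 (SE, n = 3), adjusted p = 0.0141). It was not called without B6J replicate 1 (adjusted p = 0.125) or B6J replicate 2 (adjusted p = 0.0819), and DESeq2 called 2 genes of the list. The chaperones *Calr*, *Hspa5* and *Canx* had 0.28 ± 0.18, 0.44 ± 0.19 and 0.13 ± 0.18 and did not pass (adjusted p = 0.563, 0.343 and 0.828). No gene passed among the 24 mTOR pathway components, the 22 cholesterol synthesis enzymes (median -0.42), the 18 immediate early genes tested, the 19 members of the BCL2 family and p53 targets tested, the 23 glutamate receptors and TARPs or the 18 genes of GABA and glycine transmission. In this order, 3, 10, 2, 3, 5 and 2 of their genes had an unadjusted p under 0.05, beside 12.6% of all genes tested, and DESeq2 called 0, 0, 0, 2, 0 and 0 higher and 0, 1, 0, 0, 3 and 0 lower. Leaving out B6J.*Gtpbp1*-/- replicate 3 gave 1 call (higher) in the BCL2 family and p53 targets and 2 (lower) in the glutamate receptors, and leaving out B6J.*Gtpbp1*-/- replicate 2 gave 1 (higher) in the former. All but 1 of the cholesterol synthesis enzymes had a fold change below 0, and their summed footprints were 2276, 2449 and 2956 CPM in B6J and 2201, 2020.2 and 1579 CPM in B6J.*Gtpbp1*-/- libraries. Among the named genes of these lists, the smallest adjusted p was that of *Cdkn1a*, the p53 target that arrests the cell cycle, at 47.8, 28.2 and 37.2 CPM in B6J and 92, 79.1 and 233 CPM in B6J.*Gtpbp1*-/- libraries (log2 fold change 1.83 ± 0.40 (SE, n = 3), adjusted p = 0.0775). *Fos*, an activity-induced factor, spread more within groups than between them, from 66.7, 13.9 and 227 CPM in B6J to 142, 121 and 49 CPM in B6J.*Gtpbp1*-/- libraries (log2 fold change 0.016 ± 1.06 (SE, n = 3), adjusted p = 0.997). The 13 mitochondrially encoded genes had summed footprints of 3375, 5882 and 11037 CPM in B6J and 9616, 10183 and 8406 CPM in B6J.*Gtpbp1*-/- libraries, and none passed (1 at an unadjusted p under 0.05, 0 called with DESeq2, 1 called higher by edgeR without B6J replicate 3). Without both libraries lowest in choroid plexus markers, edgeR called 2 of them higher, beside 105 of 13410 genes, and their median was 0.97 against 0.50 with all 6 libraries.

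Outside the lists, the genes chosen by the smallest p or the largest fold included *Ddr2*, a collagen receptor kinase, at 9.15, 15.2 and 10.8 CPM in B6J and 66.4, 42 and 69.7 CPM in B6J.*Gtpbp1*-/- libraries (log2 fold change 2.34 ± 0.27 (SE, n = 3), adjusted p = 0.00165). *Cox6a2*, the heart and muscle form of a cytochrome c oxidase subunit, went from 1.12, 0 and 2.69 CPM to 81.4, 36 and 66.4 CPM. The *Ddr2* call held without each library. *Adm2*, a secreted peptide of the calcitonin family, had 2 counts over the B6J libraries and 414 over the B6J.*Gtpbp1*-/- libraries, a ratio of 147 with a 95% exact counting interval of 40.3 to 1214. *Cyb5r2*, a cytochrome b5 reductase, had no footprint in any B6J library and 123 counts in the B6J.*Gtpbp1*-/- libraries, which makes it at least 29-fold higher against a floor of 3 counts over the B6J group. All 4 genes were higher in every B6J.*Gtpbp1*-/- library than in any B6J library, as were 9.02% of all genes tested. They were chosen by p or fold, so this separation is no further evidence. *Cox6a2*, *Adm2* and *Cyb5r2* passed the count filter through the B6J.*Gtpbp1*-/- libraries, so their adjusted p is not given.

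The 24 genes called lower were, apart from *Gtpbp1*, outside every list. *Vwa7*, which encodes a von Willebrand factor A domain protein, had 17, 23.1 and 16 CPM in B6J and 4.46, 3.55 and 2.5 CPM in B6J.*Gtpbp1*-/- libraries (log2 fold change -2.40 ± 0.32 (SE, n = 3), adjusted p = 0.00429). *Mybpc3*, known as a myosin-binding protein of the heart, had 77.7, 105 and 37.2 CPM and 10.2, 15.5 and 14.3 CPM (log2 fold change -2.45 ± 0.34 (SE, n = 3), adjusted p = 0.00615). Both calls held without each library, and the B6J values of *Mybpc3* differed among themselves more than its B6J.*Gtpbp1*-/- values. The co-repressor *Tle2* had 42.4, 57.4 and 28 CPM and 8.2, 11.6 and 12.8 CPM (log2 fold change -1.97 ± 0.29 (SE, n = 3), adjusted p = 0.00823), and its call was lost without B6J replicate 1 (adjusted p = 0.0591). *Kcnt1*, a sodium-activated potassium channel, had 181, 277 and 100 CPM and 44.2, 56 and 64 CPM (log2 fold change -1.76 ± 0.31 (SE, n = 3), adjusted p = 0.0254), and *Rims1*, a scaffold of the presynaptic active zone, 152, 192 and 104 CPM and 61, 59.6 and 66.6 CPM (log2 fold change -1.26 ± 0.22 (SE, n = 3), adjusted p = 0.0209). In these neuronal genes B6J replicate 3 was the lowest B6J library and B6J replicate 2 the highest. *Kcnt1* was called only in the fit without B6J replicate 3 among those that left out a library (adjusted p = 0.00485, and up to 0.161 in the others), and *Rims1* only without B6J replicate 3 or B6J.*Gtpbp1*-/- replicate 3 (adjusted p = 0.00847 and 0.0245, and up to 0.131 in the others).

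The other named genes called lower were *Tesc* and *Necab3*, which bind calcium, *Mical2*, an oxidase that acts on actin, *Emilin3* and *Svep1* of the extracellular matrix, and the zinc finger gene *Zfp467*. Their log2 fold changes ran from -2.61 (*Emilin3*) to -1.08 (*Necab3*), with adjusted p from 0.0127 (*Tesc*) to 0.0225 (*Zfp467*). *Necab3* had 157, 179.5 and 166 CPM in B6J and 71.6, 75.3 and 90.1 CPM in B6J.*Gtpbp1*-/- libraries, a small spread within each group. None of these calls held without B6J replicate 1 (adjusted p of 0.0524 for *Tesc* to 0.133 for *Svep1*) or B6J replicate 2 (0.0555 for *Tesc* to 0.107 for *Zfp467*). All but *Tesc* were also lost without B6J.*Gtpbp1*-/- replicate 2, with adjusted p of 0.0587 for *Emilin3* to 0.096 for *Svep1*, and *Necab3*, *Mical2*, *Emilin3* and *Zfp467* without B6J.*Gtpbp1*-/- replicate 1, with 0.0701 for *Necab3* to 0.0986 for *Zfp467*.

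Markers of the cells of the cerebellum were present in every library. Markers of granule neurons, the most numerous neurons of the brain, had summed footprints of 10718, 14257 and 11827 CPM in B6J and 10204, 7698 and 9860.2 CPM in B6J.*Gtpbp1*-/- libraries, and all 3 B6J.*Gtpbp1*-/- libraries were lower. Without *Snap25*, the most abundant member of the list, the sums were 7968, 11281 and 8878 CPM in B6J and 7834, 5868 and 7973 CPM in B6J.*Gtpbp1*-/- libraries, which overlapped. The separation of the summed footprints thus rested on *Snap25*. None of these 17 genes passed the test (11 of 17 at an unadjusted p under 0.05, beside 12.6% of all genes tested), 2 had a fold change above 0 and their median was -0.55. DESeq2 called 1 higher and 2 lower. With edgeR, 1 was called lower without B6J.*Gtpbp1*-/- replicate 3, and 2 lower with the choroid plexus level as a covariate. In RNA, 12 of the 17 were called lower and 1 higher, beside 7.93% and 5.9% of all genes. The most abundant by CPM, *Snap25* of the synaptic vesicle fusion machinery, *Fat2*, a granule cell cadherin, and *Calb2*, which encodes calretinin, had -0.51 ± 0.19, -0.71 ± 0.20 and 0.74 ± 0.20 (adjusted p = 0.255, 0.124 and 0.117). In whole tissue, fewer cells of a type and less RNA per cell cannot be told apart. Purkinje cell markers summed to 12086, 8418 and 16204 CPM in B6J and 15322, 16409.9 and 9799 CPM in B6J.*Gtpbp1*-/- libraries, with *Itpr1* the most abundant. Astrocyte and Bergmann glia markers summed to 9291, 8595 and 11724 CPM and 10148, 11606 and 11689 CPM, led by *Aldoc*, and oligodendrocyte and myelin markers to 12782, 11136 and 16733 CPM and 16776, 14582 and 12685 CPM. These 3 lists overlapped between the groups, with no gene called by edgeR (2, 3 and 1 of 12 each at an unadjusted p under 0.05) and 0, 1 and 0 called higher by DESeq2. Without B6J.*Gtpbp1*-/- replicate 2, edgeR called 1 astrocyte marker higher.

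Microglia markers summed higher in every B6J.*Gtpbp1*-/- library. Of 12, 3 were called higher and 0 lower, beside 0.573% higher and 0.172% lower among all genes tested, and 12 had an unadjusted p under 0.05, beside 12.6%. The calls were the subunits *C1qa*, *C1qb* and *C1qc* of the complement protein C1q, and the list's median log2 fold change was 1.35. *C1qb* had 20.5, 28.2 and 26.1 CPM in B6J and 99.4, 53.3 and 101 CPM in B6J.*Gtpbp1*-/- libraries (log2 fold change 1.76 ± 0.26 (SE, n = 3), adjusted p = 0.00823). *C1qa* and *C1qc* had 1.5 ± 0.29 and 1.44 ± 0.27 (adjusted p = 0.0305 and 0.0281). B6J.*Gtpbp1*-/- replicate 2 was the lowest of the 3 B6J.*Gtpbp1*-/- libraries for each of these genes. The list summed to 346, 382 and 331 CPM in B6J and 995, 535 and 932 CPM in B6J.*Gtpbp1*-/- libraries, *Csf1r*, a growth factor receptor of microglia and among its members with the highest CPM, had 1.01 ± 0.26 (adjusted p = 0.0995), and no marker was at 0. The 3 calls became 0 without B6J replicate 1, 1 without B6J replicate 2, 1 without B6J.*Gtpbp1*-/- replicate 1, 8 without B6J.*Gtpbp1*-/- replicate 2 and 5 without B6J.*Gtpbp1*-/- replicate 3. With DESeq2 they became 9. *C1qb* was not called without B6J replicate 1 (adjusted p = 0.0861). *C1qa* was not called without B6J replicate 1 (adjusted p = 0.143), B6J replicate 2 (adjusted p = 0.14), B6J replicate 3 (adjusted p = 0.0669) or B6J.*Gtpbp1*-/- replicate 1 (adjusted p = 0.124), and *C1qc* not without B6J replicate 1 (adjusted p = 0.159), B6J replicate 2 (adjusted p = 0.11), B6J replicate 3 (adjusted p = 0.0652) or B6J.*Gtpbp1*-/- replicate 1 (adjusted p = 0.107).

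Of 12 endothelial and mural markers, 1 was called higher (beside 0.573% higher and 0.172% lower among all genes tested), *Cldn5*, a tight junction protein of the blood-brain barrier, with 67.4, 47.5 and 92.7 CPM in B6J and 228, 145 and 183 CPM in B6J.*Gtpbp1*-/- libraries (log2 fold change 1.42 ± 0.25 (SE, n = 3), adjusted p = 0.0209), and it was lost without B6J replicate 1, B6J replicate 2 or B6J.*Gtpbp1*-/- replicate 1 (adjusted p = 0.156, 0.0891 and 0.083). The list summed to 668, 469 and 741 CPM in B6J and 1617, 1047 and 799 CPM in B6J.*Gtpbp1*-/- libraries, with *Slco1a4* the most abundant. The count was 3 without B6J.*Gtpbp1*-/- replicate 3 and 3 with DESeq2. Tissues around the cerebellum also varied between libraries. Meningeal and fibroblast markers, led by *Col1a2*, summed to 617, 961 and 748 CPM in B6J and 1649, 1079 and 1955 CPM in B6J.*Gtpbp1*-/- libraries, bone markers, led by *Col1a1*, to 237, 477 and 686 CPM and 1203, 1163 and 1875 CPM, and neutrophil and marrow markers, led by *S100a9*, to 10.9, 4.84 and 23.9 CPM and 34.2, 41 and 28.7 CPM. All 3 lists were higher in every B6J.*Gtpbp1*-/- library. The meningeal sums without *Col1a2* overlapped, at 460, 656 and 409 CPM in B6J and 1057, 562 and 1017 CPM in B6J.*Gtpbp1*-/- libraries. None of the genes of these 3 lists passed the test (8 of 12, 6 of 11 and 5 of 8 at an unadjusted p under 0.05, beside 12.6% of all genes tested), while DESeq2 called 2, 2 and 0 of them higher. Without B6J replicate 3, edgeR called 1, 1 and 2 of them higher, 2 meningeal markers without B6J.*Gtpbp1*-/- replicate 2, and 2 bone markers without B6J.*Gtpbp1*-/- replicate 3. Choroid plexus markers, led by *Ttr*, summed to 5730.1, 3895 and 78.9 CPM and 13885, 232 and 12228 CPM, with B6J replicate 3 and B6J.*Gtpbp1*-/- replicate 2 far below the rest of their groups. Erythroid markers, led by *Hbb-bs*, summed to 681, 543 and 1067 CPM and 2339, 803 and 1402 CPM, skeletal muscle markers, led by *Neb*, to 62, 68.4 and 37.3 CPM and 68.7, 41.5 and 89.6 CPM, and forebrain neuron markers, led by *Nptx1* and with *Emx1* at 0 in all libraries, to 1265, 1267 and 1470.3 CPM and 1130.1, 1326 and 1287 CPM. None of the genes of these 4 lists passed the test (0 of 8, 2 of 9, 5 of 15 and 0 of 8 at an unadjusted p under 0.05), and DESeq2 called 0, 1, 2 and 0 higher. Without B6J replicate 3, edgeR called 1 muscle marker higher and 1 lower. The part of these cell types in the calls above was not tested. With the choroid plexus level of each library as a covariate, chosen after seeing the data, 182 genes were called, 101 of them among the 104, and without both libraries lowest in choroid plexus markers 140, of which 69 were among the 104. The fit without both libraries called higher 5 of 7 erythroid, 3 of 12 meningeal, 2 of 10 bone, 1 of 10 muscle, 1 of 8 choroid plexus, 7 of 12 microglia and 2 of 12 endothelial markers tested in it, and the fit with the covariate 0, 0, 3, 1, 0, 3 and 1 in this order. Of all genes these fits called 105 of 13410 and 118 of 13956 higher. The fit without both libraries also called higher 2 of 13 mitochondrially encoded genes, 1 of 12 astrocyte markers and 1 of 17 BCL2 family and p53 genes. With the covariate, 2 of 17 granule neuron markers and 2 of 23 glutamate receptors were called lower, beside 64 of 13956 genes. Of the markers tested with all 6 libraries, 7 of 8 neutrophil, 10 of 15 muscle, 3 of 11 bone and 2 of 9 erythroid ones met the count filter in every library of 1 group and not of the other, so nothing is read from the counts of these 4 lists in any fit.

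**Figure D3:**
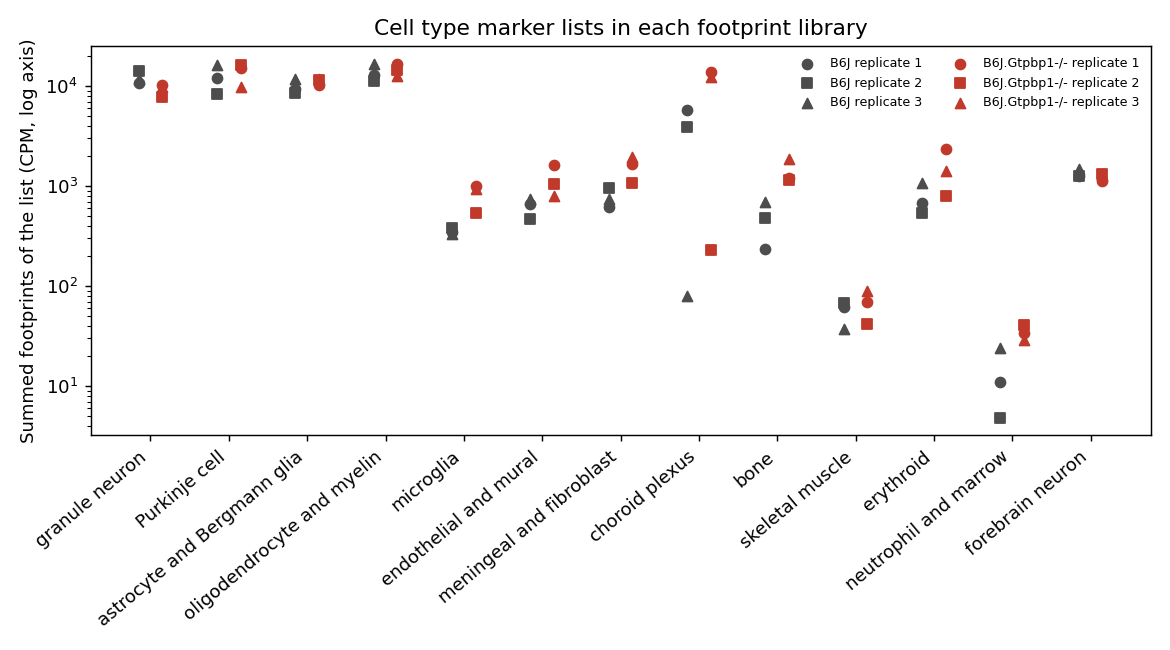
Summed footprints (CPM, log axis) of each cell type marker list in each of the 6 libraries, B6J in grey and B6J.*Gtpbp1*-/- in red, with a symbol for each replicate number. Microglia markers lie at 331 to 382 CPM in B6J and 535 to 995 CPM in B6J.*Gtpbp1*-/- libraries, and choroid plexus markers range from 78.9 to 13885 CPM without following genotype.

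The RNA libraries of the same genotypes, which the footprint test did not use, were read beside the calls. Of 24577 genes tested in RNA, 3398 were called (13.8%), 1449 higher (5.9%) and 1949 lower (7.93%), so RNA gave many more calls than footprints. The RNA libraries held 37794333 to 52114145 counts, far more than the footprint libraries, so these numbers of calls are not like for like. Of the 104 genes, 103 were tested in RNA, 101 had the same sign and 94 were called in the same direction, and none in the opposite one. *Gdf15* RNA had a log2 fold change of 6.73, *Slc7a3* 4.73, *Asns* 2.14 and *Atf4* 0.90, with footprint values of 6.18, 3.91, 1.44 and 1.71. Whether the footprint change differed from the RNA change was tested as the interaction of assay and genotype over 13902 genes, and edgeR called 0 (0%). At an unadjusted p under 0.05 there were 1217 genes (8.75%), DESeq2 called 61, and without B6J replicate 3 edgeR called 19. Of the 104 genes, 35 had an unadjusted p under 0.05 for the difference and the smallest adjusted p was 0.301. The labels put all RNA libraries in batch 1 and all footprint libraries in batch 2, so assay and batch cannot be told apart, while both genotypes stood in each batch.

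The lists were also compared between assays. Of 31 lists, 10 had footprint and RNA medians of opposite sign. Of all genes, 8.75% had an unadjusted p under 0.05 for the difference between assays. The 10 lists with the largest shares of such members follow, each with its median log2 fold change and, in brackets, the lowest and highest median over the fits that left out a library. The list of ATF4 and its partners had 6 of 10, at 1.98 (1.62 to 2.33) in footprints and 1.41 (1.39 to 1.51) in RNA. The endoplasmic reticulum chaperones had 11 of 23, at 0.28 (0.18 to 0.39) in footprints and -0.15 (-0.22 to -0.0012) in RNA. The mitochondrially encoded genes had 5 of 13, at 0.50 (0.19 to 0.99) in footprints and -0.49 (-0.53 to -0.46) in RNA. The astrocyte and Bergmann glia markers had 4 of 12, at 0.14 (0.10 to 0.29) in footprints and -0.17 (-0.22 to -0.092) in RNA. The oligodendrocyte and myelin markers had 4 of 12, at 0.11 (-0.038 to 0.28) in footprints and -0.35 (-0.40 to -0.30) in RNA. The bone markers had 3 of 10, at 0.92 (0.81 to 1.25) in footprints and 0.047 (-0.20 to 0.24) in RNA. Nothing is read from this bone count either, for the reason given with the markers above. The cholesterol synthesis enzymes had 6 of 22, at -0.42 (-0.50 to -0.29) in footprints and -0.61 (-0.65 to -0.55) in RNA. The cytosolic ribosomal proteins had 20 of 80, at 0.37 (0.24 to 0.51) in footprints and 0.027 (-0.0057 to 0.071) in RNA. The Purkinje cell markers had 3 of 12, at 0.12 (-0.033 to 0.38) in footprints and -0.22 (-0.30 to -0.16) in RNA. The meningeal and fibroblast markers had 3 of 12, at 0.84 (0.48 to 1.14) in footprints and 0.24 (0.093 to 0.28) in RNA. In RNA, 12 of 13 mitochondrially encoded genes, 20 of 22 cholesterol synthesis enzymes and 8 of 12 oligodendrocyte markers were called lower, beside 7.93% of all genes. Of 17 granule neuron markers, 12 were called lower in RNA and 1 higher. Called higher in RNA were 10 of 10 genes of the ATF4 list, 12 of 15 stress effectors and 14 of 21 cytosolic synthetases, beside 5.9% of all genes. So were 10 of 12 microglia markers and 11 of 18 serine, proline and one-carbon enzymes, of which 2 were called lower. No member of any list passed edgeR's adjusted test of the difference.

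**Figure D4:**
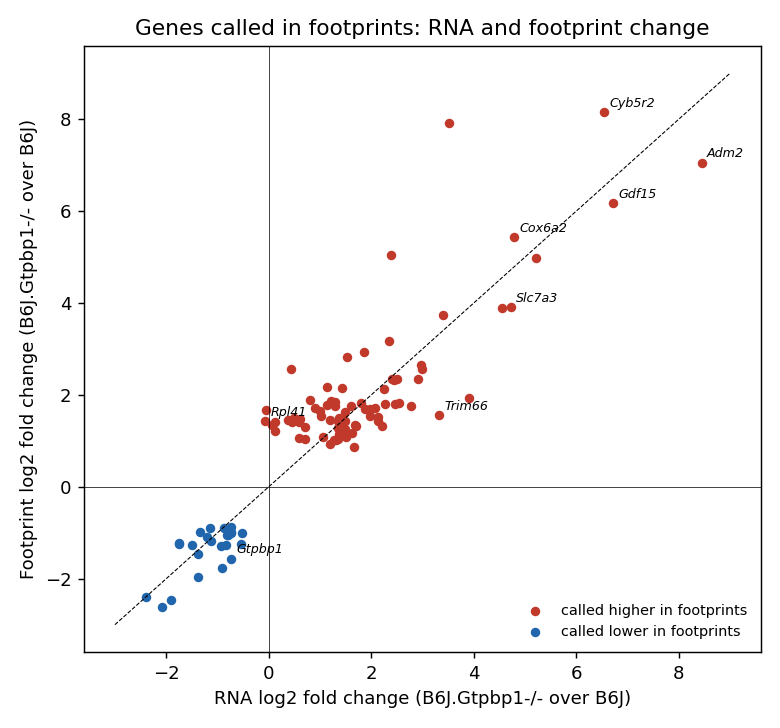
Log2 fold change in RNA (horizontal) and in footprints (vertical), both B6J.*Gtpbp1*-/- over B6J, for the 103 genes called in footprints that were also tested in RNA. Red points were called higher and blue points lower in footprints, and the dashed line marks equal change. Points lie on both sides of the line, *Rpl41* lies near 0 on the RNA axis, and the fitted values of *Cyb5r2* depend on the prior count.

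Since all mice lacked full function of an AGA-decoding tRNA, the AGA content of genes was set beside their footprint change. Of the 13956 genes tested, 13923 had a complete coding sequence, and these were divided into 5 bins of AGA codons per 1000 codons. The median log2 fold change of the bins, from fewest to most AGA codons, was 0.023, -0.011, 0.014, 0.013 and 0.026, with 24, 12, 23, 9 and 12 genes called higher and 4, 10, 5, 4 and 1 called lower. Weighted by footprints, coding sequences held 10.1, 9.79 and 9.7 AGA codons per 1000 in the B6J libraries and 10.3, 10.01 and 9.28 in the B6J.*Gtpbp1*-/- libraries, which overlapped. The group means were 9.87 ± 0.226 and 9.87 ± 0.531 (SD, n = 3). For the other arginine codons the means in B6J and B6J.*Gtpbp1*-/- libraries were 10.3 and 10.1 for AGG, 6.91 and 6.88 for CGA, 10.7 and 10.8 for CGC, 10.9 and 10.6 for CGG and 5.04 and 4.97 for CGT. These are counts over whole genes, and the position of ribosomes at single codons was not analysed here.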

How the data were processed

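Footprint and RNA libraries were prepared from cerebella of 3-week-old mice. For footprints, the authors removed ribosomal RNA reads with Bowtie2 (2.2.3), aligned the remainder to mm10 with HISAT2 (2.1.0) and deposited whole-number counts per gene over coding sequence. For RNA, the authors deposited estimated counts per transcript from kallisto (0.42.4), which were summed per gene and rounded. Tools and builds are from the submitters' processing notes and the study's methods.

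A gene was tested where 3 or more of the 6 libraries had 5 or more counts, with edgeR (4.0.16, R 4.3.3; TMM, robust quasi-likelihood, Benjamini-Hochberg). The SE of a fold change was taken as its size over the root of the F statistic. The difference between assays was an interaction term over 12 libraries. DESeq2 (1.42.0) was an alternative. The fits were tested on simulated data, but no outcome is reported here and nothing is drawn from it. Gene positions and coding sequences came from Gencode M21 (GRCm38, the same build as mm10), with 22509 of 22523 footprint genes placed. Counts ranged from 4428395 to 8612441 per footprint library, and intervals cover counting error only.

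Genes named were *Gtpbp1*, *Gtpbp2*, the 12 with the smallest p called in each direction, the 5 called with the largest fold in each direction at a mean of at least 20 counts, every called list member, and the 3 members with the highest CPM of each of the 31 lists. Members and lists were chosen with earlier results of these data known. Alternatives were other normalizations, filters, all 9 footprint libraries, thinned libraries, a replicate block and leaving out each library. RNA of the *Gtpbp2* mutant was not used here. Some genes that this rule names are not reported here.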

Additional observations from a re-analysis of the deposited data

How the results depend on the processing

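The 104 footprint calls (80 higher, 24 lower) became 410 with DESeq2 (252 higher, 158 lower), 213 with no filter on low counts (161 and 52) and 201 with all 9 footprint libraries in a single model (138 and 63). With the choroid plexus level as a covariate, added after seeing the data, 182 were called and 64 of them were lower. Without both libraries lowest in choroid plexus markers, likewise chosen after seeing the data, 140 were called. Upper quartile normalization (126), filterByExpr (109) and thinned libraries (127) stayed within 1.5 times. All 104 genes were also called with DESeq2. Leaving out single libraries gave 22 to 186 calls (18 to 115 higher, 4 to 97 lower), 1890 to 3798 in RNA (726 to 1660 higher, 1164 to 2138 lower) and 0 to 19 for the difference between assays (0 to 4 higher, 0 to 15 lower). The difference had 61 calls with DESeq2 (34 higher, 27 lower). The cause was not tested.

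With the replicate block, footprint calls fell to 44 (40 higher, 4 lower) and RNA calls to 2237 (938 higher, 1299 lower), and the difference stayed at 0. Same-numbered footprint libraries had correlations of 0.0356, -0.213 and -0.266 of their deviations, and the highest of the others were 0.258 (B6J replicate 3 with B6J.*Gtpbp1*-/- replicate 2) and 0.247 (B6J replicate 2 with B6J.*Gtpbp1*-/- replicate 3), so not every library correlated best with its own number. With 3 libraries per group, these correlations cannot decide whether the numbers pair the samples. A source shared by differently numbered libraries is not in the labels and was not tested.

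Among the named genes, the fold change (log2) took the opposite sign in these settings. In footprints, with libraries thinned to the smallest total, *Eif2ak1* had -0.048, *Fos* had -0.0028. In footprints, with no filter on low counts, *Eef2* had 0.010. In footprints, with upper quartile normalization, *Eef2* had 0.032. In footprints, with filterByExpr, *Eef2* had 0.012. In footprints, with both libraries lowest in choroid plexus markers left out, *Eef2* had 0.15, *Dusp1* had 0.14. In footprints, with all 9 footprint libraries in a single model, *Fos* had -0.0039, *Car8* had -0.013. In footprints, with choroid plexus marker level as a covariate, *Gad1* had 0.10, *Kl* had -0.76. In footprints, with replicate block, *Car8* had -0.022. In RNA, with no filter on low counts, *Slc1a2* had 0.0032, *Kl* had 0.0027. In RNA, with replicate block, *Kl* had 0.14. Over the fits that left out a library, the lowest and highest footprint values were *Aldoc* -0.11 to 0.45, *Calb1* -0.22 to 0.45, *Car8* -0.18 to 0.26, *Clic6* -0.082 to 0.94, *Dusp1* -0.93 to 0.23, *Eef2* -0.085 to 0.084, *Eif2ak1* -0.017 to 0.11, *Fos* -0.50 to 1.37, *Gad1* -0.35 to 0.23, *Gria1* -0.057 to 0.46, *Grin1* -0.073 to 0.0066, *Impact* -0.040 to 0.48, *Itpr1* -0.085 to 0.39, *Kl* -0.30 to 0.88, *Mag* -0.023 to 0.26, *Rpl4* -0.031 to 0.31, *Slc1a2* -0.27 to 0.30, *Slc1a3* -0.024 to 0.13, *Vcp* -0.028 to 0.30. In RNA they were *Alpl* -0.30 to 0.14, *Clic6* -0.28 to 0.40, *Col1a1* -0.060 to 0.34, *Eif2ak1* -0.12 to 0.011, *Iars2* -0.012 to 0.055, *Kl* -0.45 to 0.48, *Mgp* -0.14 to 0.26, *Slc1a2* -0.062 to 0.060, *Ttr* -0.38 to 0.68. None of these genes was called in the assay named.

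The depth of 4428395 to 8612441 footprints and 3 libraries per group limit what was detectable. An exact permutation test of 3 against 3 cannot go below p = 0.1.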
